A study of Mus musculus with 2 samples.

Results

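Intronless protein-coding loci are genes whose messenger RNA is made from a single exon. They were chosen here as the protein-coding genes outside the mitochondrial chromosome for which every annotated transcript has exactly 1 exon, with any read in either library. In the deposited annotation 1331 loci met the exon rule, and 369 of them (27.7%) had reads. By comparison, 14377 of 20684 protein-coding loci annotated with more than 1 exon (69.5%) had reads, and 18534 annotated genes of any kind did. The reads are long complementary DNA molecules made from 2 µg of RNA per library. The tissue was left cerebral cortex, and the animals were hybrid B6CASTF1/J mice of 18 to 20 months. There were 2 libraries of 1 group, labelled replicate 1 and replicate 2, and no treatment or genotype contrast. Both libraries carry the same donor entry and no label says that they came from separate animals, so the spread between them may be technical. The sex field of the labels gives female and a free-text description gives male.

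Most mammalian messenger RNAs are assembled by splicing, which also loads proteins that help export, translation and surveillance of the RNA. Intronless genes do without this step. They include old families such as histones, many G protein-coupled receptors and AP-1 transcription factors, and younger genes that arose when a spliced RNA was copied back into the genome or when a retrotransposon gene was taken over by the host. Several are rapidly induced transcription factors, whose RNA can be made without waiting for splicing.

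Reads on annotated genes numbered 774629 in replicate 1 and 679147 in replicate 2, and levels are given as CPM, the reads of a locus scaled to a common total of these. A long read was counted once whatever its length, so CPM was not divided by transcript length. Reads copied from the same RNA molecule were not told apart. A locus with 0 reads could still have a level of up to 3.87 CPM in replicate 1 and 4.42 CPM in replicate 2. These limits and all intervals cover counting error only. The tissue label was checked with marker genes. The excitatory neuron gene Slc17a7 had 885 and 661 reads, the inhibitory neuron gene Gad1 343 and 263, and the myelin gene Mbp 1154 and 862, while the cerebellar genes Cbln3 and Gabra6 had 0 in both. Xist had 34 and 29 reads and the Y-linked genes Ddx3y, Uty, Kdm5d and Eif2s3y had 0 in both. These values go with the sex field of the labels, female, and not with the free-text description.

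The sequences that follow are those on which later results turn. The first set is from 6 loci where reads of both libraries joined 2 pieces of RNA across a stretch that the annotation leaves unspliced. Each donor line gives 12 bases before the intron and its first 8 bases, and each acceptor line gives the last 14 bases of the intron and 8 bases after it. They were read 5′ to 3′ from GENCODE transcript sequences, with the outermost 2 bases of the intron in capitals.
Rtl8c donor: ggctacaagaggGTgagctg
Fndc10 donor: ctgcacccagggGTgagtgt
Fndc10 acceptor: cattctcaccccAGcgaccgtg
Epop donor: gtttgaatgaggGTcagttt
Epop acceptor: ttttctctccgtAGtcctcccc
9430097D07Rik donor: gcgatggctgagGTgcctga
9430097D07Rik acceptor: ttgggtctttttAGgcatgaaa
Slitrk1 donor: ccgagaggcaagGTcagtcc
Slitrk1 acceptor: tctgtggcgagcAGgatggttg
Ankrd63 donor: gcaggctcagcgGTaaggag
Ankrd63 acceptor: tatcaccttggcAGccaggtaa
All 5 introns that lie wholly inside an annotated exon and were read in both libraries begin with GT and end with AG, the usual letters of mammalian introns. The Rtl8c intron (mm10, chrX:53608425-53608685, plus strand) also begins with GT. Its other end lies outside the annotated exon and was not read. The aligner is not known, so how far its placement of junctions set these letters was not tested. Bases were repeated at both ends of the 5 introns, so each junction could be placed in more than 1 position. The repeat was 3 nt at 9430097D07Rik and Slitrk1, and 1 nt at Fndc10, Epop and Ankrd63.

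The second set is the promoter windows of 3 abundant members, taken from RefSeq (GRCm38.p6) as 250 bases before to 50 after the RefSeq start. Capitals mark CCAAT or its reverse complement ATTGG, and GGGCGG or its reverse complement CCGCCC. Tspyl1 (chr10:34281940-34282239, plus strand) is shown as the member with the most reads whose RefSeq and GENCODE starts coincide. Rtl8a (chrX:53643714-53644013, minus strand) and Rtl8b (chrX:53670388-53670687, minus strand) are shown because their transcripts are nearly the same.
Tspyl1: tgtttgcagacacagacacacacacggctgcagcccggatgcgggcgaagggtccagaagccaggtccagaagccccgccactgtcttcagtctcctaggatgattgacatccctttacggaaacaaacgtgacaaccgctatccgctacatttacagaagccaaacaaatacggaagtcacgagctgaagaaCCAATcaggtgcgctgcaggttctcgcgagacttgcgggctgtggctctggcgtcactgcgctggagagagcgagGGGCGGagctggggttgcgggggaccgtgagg
Rtl8a: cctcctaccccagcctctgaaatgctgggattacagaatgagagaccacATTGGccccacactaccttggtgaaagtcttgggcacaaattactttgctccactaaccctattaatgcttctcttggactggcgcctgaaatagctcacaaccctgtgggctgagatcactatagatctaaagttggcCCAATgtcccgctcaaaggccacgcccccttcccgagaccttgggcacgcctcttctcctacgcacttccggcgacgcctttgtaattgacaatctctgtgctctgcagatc
Rtl8b: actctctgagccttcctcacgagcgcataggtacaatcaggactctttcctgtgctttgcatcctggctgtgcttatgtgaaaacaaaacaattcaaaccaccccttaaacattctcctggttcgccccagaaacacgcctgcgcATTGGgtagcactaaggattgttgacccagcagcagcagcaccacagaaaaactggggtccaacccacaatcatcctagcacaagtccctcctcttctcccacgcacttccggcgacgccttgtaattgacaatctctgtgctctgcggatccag
Over all 32851 windows of the RefSeq table, 37.4% hold CCAAT or ATTGG and 35.7% hold GGGCGG or CCGCCC, so neither motif is rare. The longest run of letters shared by the Rtl8a and Rtl8b windows was 27 bases, near their 3′ ends. It began at base 269 of the Rtl8a window and base 266 of the Rtl8b window. The run thus lies after the RefSeq start and outside the 250 bases before it. Shortly before it both windows also hold acgcacttccggcgacgcc, which crosses the RefSeq start. The shared letters are therefore not confined to the part after the start. Only 231 of the 369 loci (62.6%) had a window, under the 80% needed here, so a comparison of promoter composition with other genes is void and is not given.

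The 369 loci held 9717 reads in replicate 1 and 8205 in replicate 2. Their share of reads on annotated genes was 1.25% in replicate 1, with a 95% Wilson interval of 1.23 to 1.28, and 1.21% (1.18 to 1.23) in replicate 2, a mean of 1.23% ± 0.0327 (SD, n = 2). Loci annotated with more than 1 exon held 96.2% and 95.8%. Of the 369 loci, 277 had reads in both libraries, 48 in replicate 1 only and 44 in replicate 2 only. At least 10 reads over both libraries were found at 195 loci, at least 20 at 154 and at least 100 at 52. The median was 12 reads per intronless locus with reads and 31 per multi-exon locus with reads.

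A few genes carried much of this signal. Jund, a subunit of the AP-1 transcription factor (chromosome 8, 70698949 to 70700616, mm10), had 668 and 691 reads, or 862 and 1017 CPM, and held 6.87% and 8.42% of all reads on intronless loci. The 10 leading loci held 27.8% and 28.9%, and the 50 leading loci 63.9% and 64.4%. The next was Ndn, encoding necdin, an imprinted MAGE family gene of postmitotic neurons (chromosome 7, 62346569 to 62350262), with 319 and 245 reads. Tspyl1, of the nucleosome assembly protein family (chromosome 10, 34282190 to 34285275), had 265 and 237. Jund was thus over 2 times as high in CPM as any other member in both libraries, while the genes after it lay close together.

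**Figure D1:**
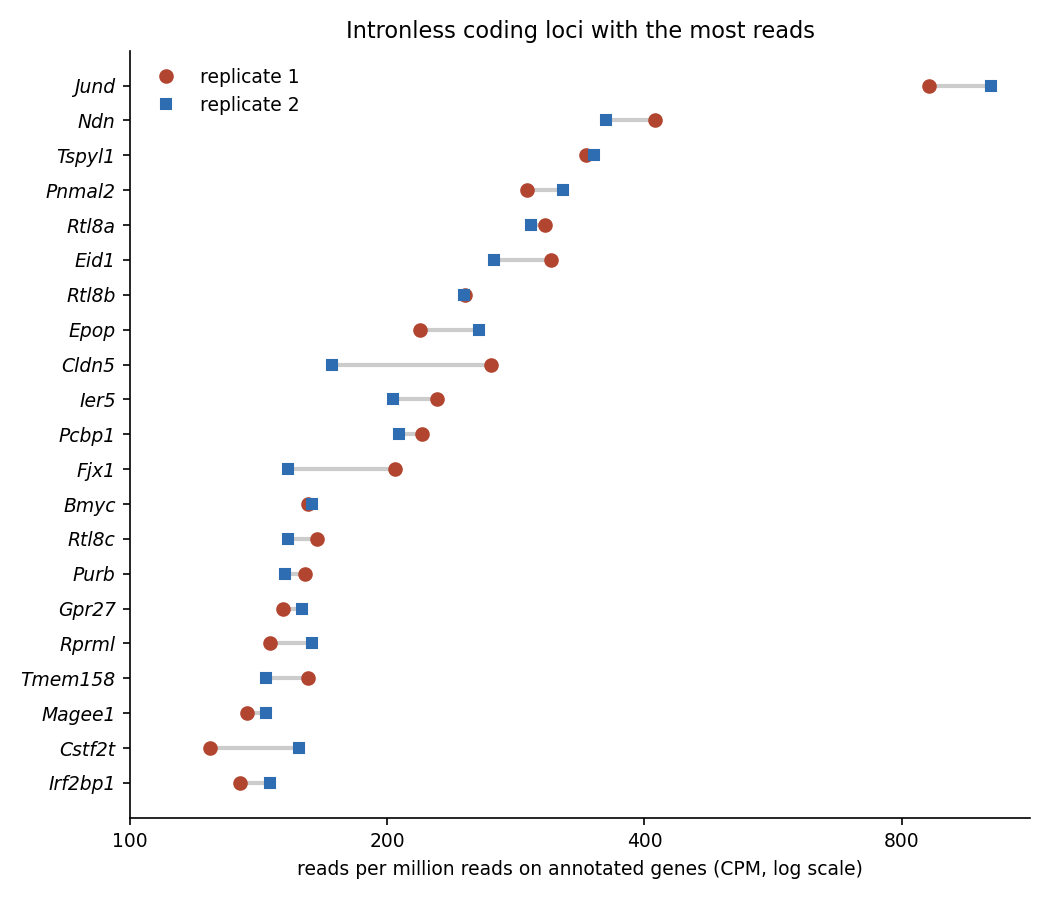
Levels of the 21 intronless loci with the most reads (the last 2 tie at 203 reads), in CPM on a log axis, with replicate 1 as circles and replicate 2 as squares. Jund stands apart at 862 and 1017 CPM, and Cldn5 shows the widest gap between the libraries among the loci drawn.

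Other leading members came from chromatin and transcription. Eid1, an inhibitor of the acetyltransferase EP300, had 241 and 181 reads, and Epop, which joins elongin to Polycomb repressive complex 2, had 169 and 174. Irf2bp1, a corepressor, had 104 and 99 reads, and Bmyc, a Myc-related gene, had 125 and 111. RNA-binding members included Pcbp1, a poly(C)-binding protein, with 170 and 140 reads. Cstf2t, a copy of a subunit of the cleavage stimulation factor that prepares RNA for polyadenylation, had 96 and 107 reads. Purb, which binds purine-rich DNA and RNA, had 124 and 103, though a small gene, Gm22123, shares exonic bases with it on the same strand. Membrane and secreted members included Fjx1, related to the fly gene four-jointed, with 158 and 104 reads, Tmem158 with 125 and 98, and Rprml with 113 and 111.

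Genes taken over from retrotransposons formed a conspicuous group. This family and the MAGE, nucleosome assembly and EID families were put together after the values were seen, so their sums are descriptions. The 8 intronless genes of the Rtl, Pnma and Ldoc1 families, all derived from Gag genes, all had reads and together reached 1133 CPM in replicate 1 and 1094 CPM in replicate 2 (1114 ± 27.9, SD, n = 2). Pnmal2 had 226 and 218 reads, Rtl8a 237 and 200, Rtl8b 191 and 167, Rtl8c 128 and 104, and Rtl6 82 and 51. Pnma1, Pnma3 and Ldoc1 were low, with 14, 2 and 1 reads over both libraries. The MAGE family had reads at 7 of 11 intronless genes and summed to 628 ± 50.6 CPM, led by Ndn and by Magee1, whose product binds a dystrobrevin, with 106 and 98 reads. The nucleosome assembly family had reads at 5 of 5 and summed to 578 ± 38.7 CPM. The EID family had reads at 3 of 4 and summed to 428 ± 50.8 CPM.

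Rtl8a, Rtl8b and Rtl8c lie within 62377 nt on chromosome X. Together they held 556 and 471 reads, which was 49.4% and 49.9% of the reads on X-linked intronless loci. X-linked loci made up 24 of the 369 (6.50%) and held 11.6% of intronless reads in replicate 1 and 11.5% in replicate 2. Among multi-exon coding loci the X held 2.97% and 2.96% of reads. Nap1l2, a neuronal histone chaperone of the nucleosome assembly family, had 114 and 74 reads, and Ubqln2, which delivers ubiquitinated proteins to the proteasome, had 61 and 50. The transcripts of Rtl8a and Rtl8b are 99.6% identical over 99.0% and 96.0% of their lengths, so the split of reads between them is uncertain and their sum is the safer value.

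The other members are described by lists of genes. A list is a chosen set and not every intronless gene of its kind, so its counts hold for the listed genes only. In the AP-1, C/EBP and early response list, all 9 intronless genes had at least 20 reads, and they summed to 1479 CPM in replicate 1 and 1601 CPM in replicate 2. After Jund came Ier5, an early response gene linked to the heat shock factor Hsf1, with 177 and 138 reads, and Rhob, a growth factor-induced GTPase, with 68 and 71. Cebpb had 48 and 57 reads, Ier5l 39 and 38, and Nrarp, a target and inhibitor of Notch signalling, 41 and 28. Jun itself, the founding AP-1 gene, had 31 and 30 reads, so Jund had 21.5 times as many reads in replicate 1 and 23.0 times as many in replicate 2. Both listed 70-kDa heat shock genes also had at least 20 reads, with 30 and 16 reads for Hspa1a and 27 and 26 for Hspa1b, which are 99.2% identical over 74.0% of Hspa1a and 78.5% of Hspa1b.

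The list of factors of neural and glial lineages had reads at 18 of 29 genes, 8 of them with at least 20 reads, and summed to 379 ± 33.9 CPM. It also counts Foxc1, Mafa, Foxq1 and Foxd1, with 19, 8, 6 and 5 reads over both libraries. Whether these 4 belong to neural or glial lineages was not checked. Olig1, of the oligodendrocyte lineage, led with 78 and 51 reads. Sox2, of neural progenitors and astrocytes, had 70 and 28 reads, and the neuronal POU factor Pou3f1 had 45 and 52. Pou3f3 had 22 and 17 reads, Sox4 15 and 22, and Bhlhe22 13 and 12. No gene of the list approached the level of Jund, and 11 had 0 reads in both libraries.

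Receptors and channels were broadly present and mostly low. Of 25 listed G protein-coupled and Frizzled receptor genes, 22 had reads and 7 had at least 20. The list leaves out the receptor genes Rxfp3, Lpar6, Uts2r and Npbwr1, which had 6, 3, 2 and 1 reads over both libraries. Gpr27, an orphan receptor of the brain, had 117 and 108 reads, and Adra2c, an alpha-2 adrenergic receptor, had 107 and 60. The Wnt receptors Fzd2 and Fzd1 had 13 and 29 reads, and 7 and 18 reads. Chrm4, the M4 muscarinic acetylcholine receptor, had 19 and 19. All 3 listed potassium channel genes had reads, led by Kcnf1, a modifier subunit of Kv2 channels, with 80 and 65, and the channel subunit gene Kcne1l, outside the list, had 6 and 4. The cell surface adhesion list had reads at 18 of 20 genes but at least 20 reads at 3 only. Among them Slitrk1, which induces synapses, had 28 and 20 reads, and Pcdhb9, a clustered beta-protocadherin, had 22 and 16. Over all beta-protocadherins, 16 of 18 intronless genes had reads, 76 and 68 in all.

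Histone genes of 2 lists were read. Genes with symbols starting with Hist1h, Hist2h, Hist3h or Hist4h were listed as replication-dependent. Histones of that class are made for S phase, and their RNA normally lacks a poly(A) tail. Of the 62 listed genes 15 had reads, and 2 had at least 20 reads. Hist3h2a led them with 70 and 51 reads, and it shares exonic bases with Trim17 on the same strand. Its annotated transcript has a 3′ untranslated region of 1703 nt and the polyadenylation signal AATAAA in its last 50 nt. Hist3h2ba, Hist1h1c and Hist2h2be also have that signal, while Hist2h2aa2 and Hist2h2aa1 do not. Whether the histone RNA read had a poly(A) tail was not tested. The 4 listed replication-independent genes all had reads. H2afx, the variant phosphorylated at DNA breaks, had 65 and 55, the linker histone H1f0 61 and 56, and H1fx 25 and 16. Hist3h2ba, which is in both lists, had 6 and 6.

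In the other lists, signalling regulators had reads at 10 of 10 genes and at least 20 at 5. Besides Pnmal2 and Fjx1 they included Cdk5r2, an activator of the neuronal kinase Cdk5, with 56 and 34 reads, and Rap2b, a small GTPase, with 28 and 15. Ubiquitin ligase adaptors had reads at 6 of 7, led by Klhl9 with 33 and 35. Imprinted genes had reads at 4 of 6, of which Mcts2, Magel2 and Mkrn3 had 6, 3 and 1 reads over both libraries beside Ndn. Zrsr1, an imprinted splicing factor gene outside that list, had 44 and 50 reads. Of 4 listed glycosyltransferases and sulfotransferases 3 had reads, with 1 read each. Other members of this kind had more. Mgat2, which builds N-linked glycans, had 71 and 59 reads, B3galt6, which builds the linker of proteoglycans, 39 and 27, and Pigm, of GPI anchor synthesis, 9 and 8. The chemosensory list was made from symbols starting with Olfr, Vmn1r, Tas2r, Taar or Mrgpr, and the role of each gene was not checked. It had reads at 2 of 228 genes, the trace amine receptor Taar1 and Mrgprh, with 1 read each. The read of Mrgprh was on a spliced model with an intron of 9629 nt.

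**Figure D2:**
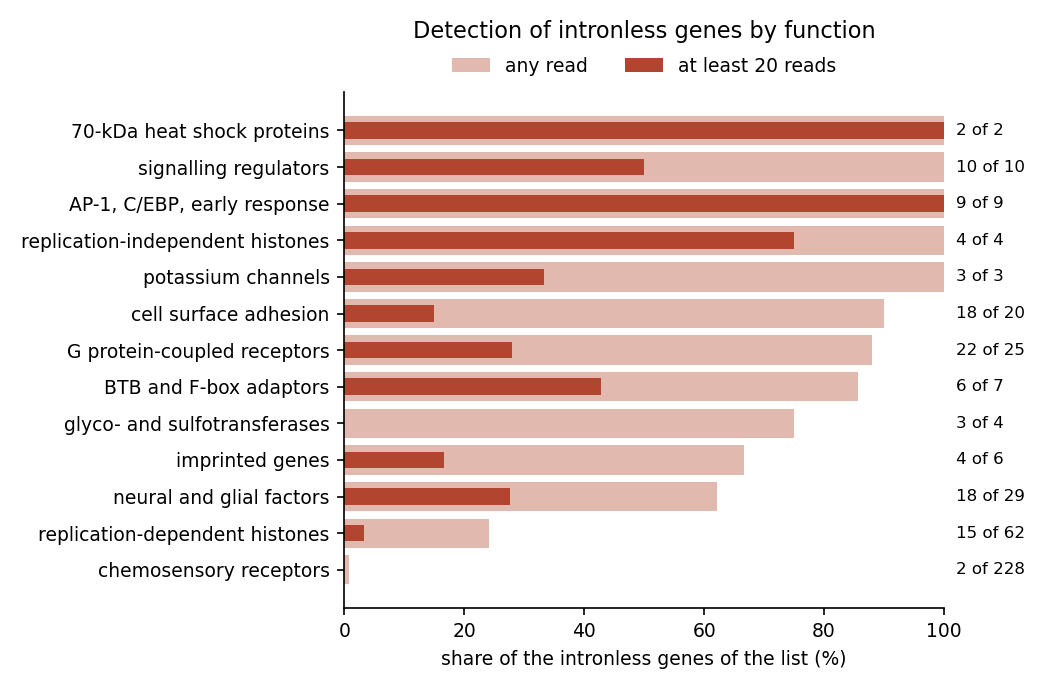
Share of the intronless genes of each list with any read (pale bars) and with at least 20 reads over both libraries (dark bars), in percent, with the counts of genes with reads at the right. The lists run from all 9 early response genes with at least 20 reads to 2 of 228 genes of the chemosensory list with any read.

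The 962 intronless loci without reads included 226 genes of the chemosensory list, 47 of the replication-dependent histone list, 52 keratin-associated genes and 17 interferon genes. A further 284 were predicted genes named Gm and a number. Another 30 lay on the Y chromosome, where the marker genes Ddx3y, Uty, Kdm5d and Eif2s3y also had 0 reads. Annotated transcripts of the intronless loci with reads had a median length of 2162 nt and a median 3′ untranslated region of 857 nt. Those of the intronless loci without reads had 951 nt and 44 nt, and those of multi-exon coding genes with reads 3180 nt and 1195 nt. The polyadenylation signal AATAAA was searched on the transcript strand in the last 50 nt. It was present in 57.8% of intronless loci with reads, 26.9% of those without and 63.6% of multi-exon genes with reads. The stop codon is counted here with the 3′ untranslated region, and at loci without reads the lower quartile of that region was 3 nt. Where the region is under 50 nt, the search reached into coding sequence. How much of the difference in the signal comes from such short annotated ends was not tested. The GC content of the transcript had a median of 54.2% at intronless loci with reads and 50.3% at multi-exon ones. The coding part made up a median of 44.9% of the annotated transcript at intronless loci with reads and 89.3% at those without. Lengths are those of the annotation, not of the reads.

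Nearly all reads at the intronless loci were given to the annotated transcript, 97.8% in replicate 1, with a 95% Wilson interval of 97.5 to 98.1, and 97.7% (97.4 to 98.0) in replicate 2. At multi-exon loci it was 70.8% and 67.8%. The class means different things in the pair of gene sets. Of single-exon reads, 99.8% and 99.7% were classed as annotated at intronless loci, against 5.91% and 6.01% at multi-exon loci. Where each read began and ended was not analysed here, so the annotated share does not show how much of the exon a read covered.

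**Figure D3:**
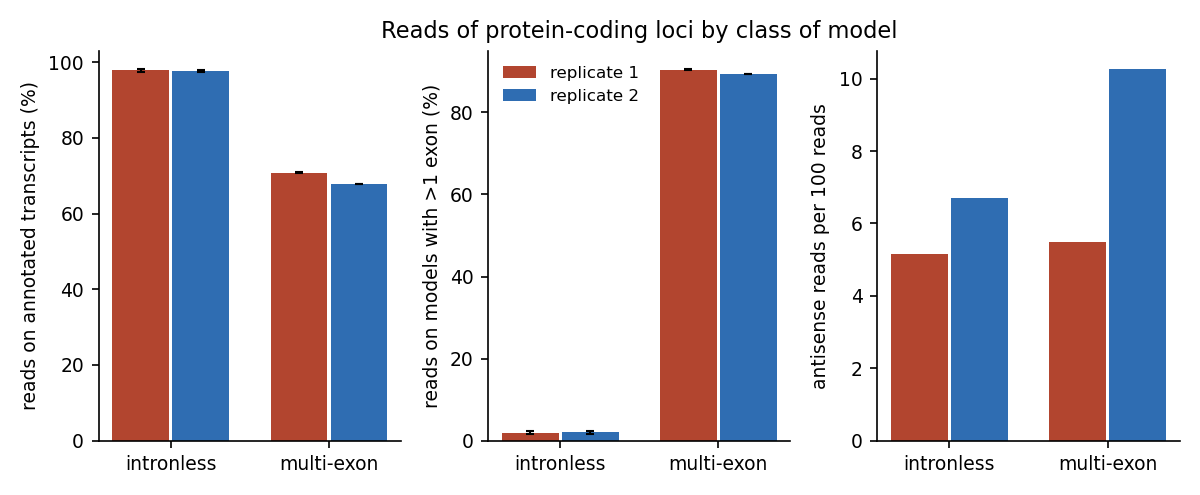
Share of reads on annotated transcripts, share on models with more than 1 exon (both in percent, with 95% Wilson intervals) and antisense reads per 100 reads of the loci, for intronless and multi-exon protein-coding loci in replicate 1 and replicate 2. At intronless loci the annotated share is 97.8% and 97.7%, and the share on models with more than 1 exon is 1.99% and 2.01%. Antisense models are counted at each locus they overlap for intronless loci and once each for multi-exon loci.

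Spliced models held 193 reads (1.99%) at the intronless loci in replicate 1 and 165 (2.01%) in replicate 2, against 90.4% and 89.4% at multi-exon loci. They were concentrated at few genes. Of the 154 loci with at least 20 reads, 112 had no spliced read, 9 had a spliced share over 5% and 3 had one over 50%. Rtl8c alone gave 52.3% and 46.7% of the spliced reads of all intronless loci.

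Rtl8c was read mostly as a spliced RNA. Its annotated exon spans 401 nt (chrX:53608032-53608432, plus strand), and 101 of 128 reads in replicate 1 and 77 of 104 in replicate 2 were on models with more than 1 exon. The main intron of 261 nt began with the last 8 nt of the annotated exon and carried 101 and 75 reads. It lies wholly 3′ of the coding part. A further 18 and 22 reads were on single-exon models at 53608686 to 53608979, directly after that intron. The RefSeq interval of the gene, 53607922 to 53609135, extends past this point. Rtl8a and Rtl8b, its neighbours, had 1 spliced read each over both libraries.

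Chrm4 had spliced reads in 19 of 19 cases in replicate 1 and 16 of 19 in replicate 2. An intron of 4873 nt (chr2:91922344-91927216, plus strand) carried 19 and 14 of them and ended 32 nt before the annotated exon, which starts at 91927249 with the first base of the coding part. The RefSeq interval of Chrm4, 91922189 to 91929835, includes the intron. Tmem200b, encoding a transmembrane protein, had 7 of 14 and 8 of 13 reads across an intron of 465 nt (chr4:131921286-131921750, plus strand) that also lies upstream of its annotated exon. The main intron at each of these 3 loci lies outside the coding part.

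Another 5 loci had an intron wholly inside the annotated exon that was read in both libraries, and not all of them had a high spliced share. Fndc10, encoding a fibronectin domain protein, had 4 of 14 and 3 of 11 spliced reads, with an intron of 450 nt in the 3′ untranslated region (chr4:155695909-155696358, plus strand). Slitrk1 had 2 of 28 and 2 of 20, with an intron of 459 nt in the 5′ untranslated region (chr14:108913331-108913789, minus strand). Epop had 2 of 169 and 4 of 174 across an intron of 125 nt in the 3′ untranslated region (chr11:97627666-97627790, minus strand). The intron of 9430097D07Rik (chr2:32575251-32575513, minus strand) had 2 and 2 reads. That of Ankrd63 (chr2:118701869-118702269, minus strand) had 1 and 1 and began with the last coding base. In the donor letters that base, G, is followed by the stop codon TAA, which the intron also takes out. What this does to the protein was not tested. The donor and acceptor letters of these 5 introns are those printed above.

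**Figure D4:**
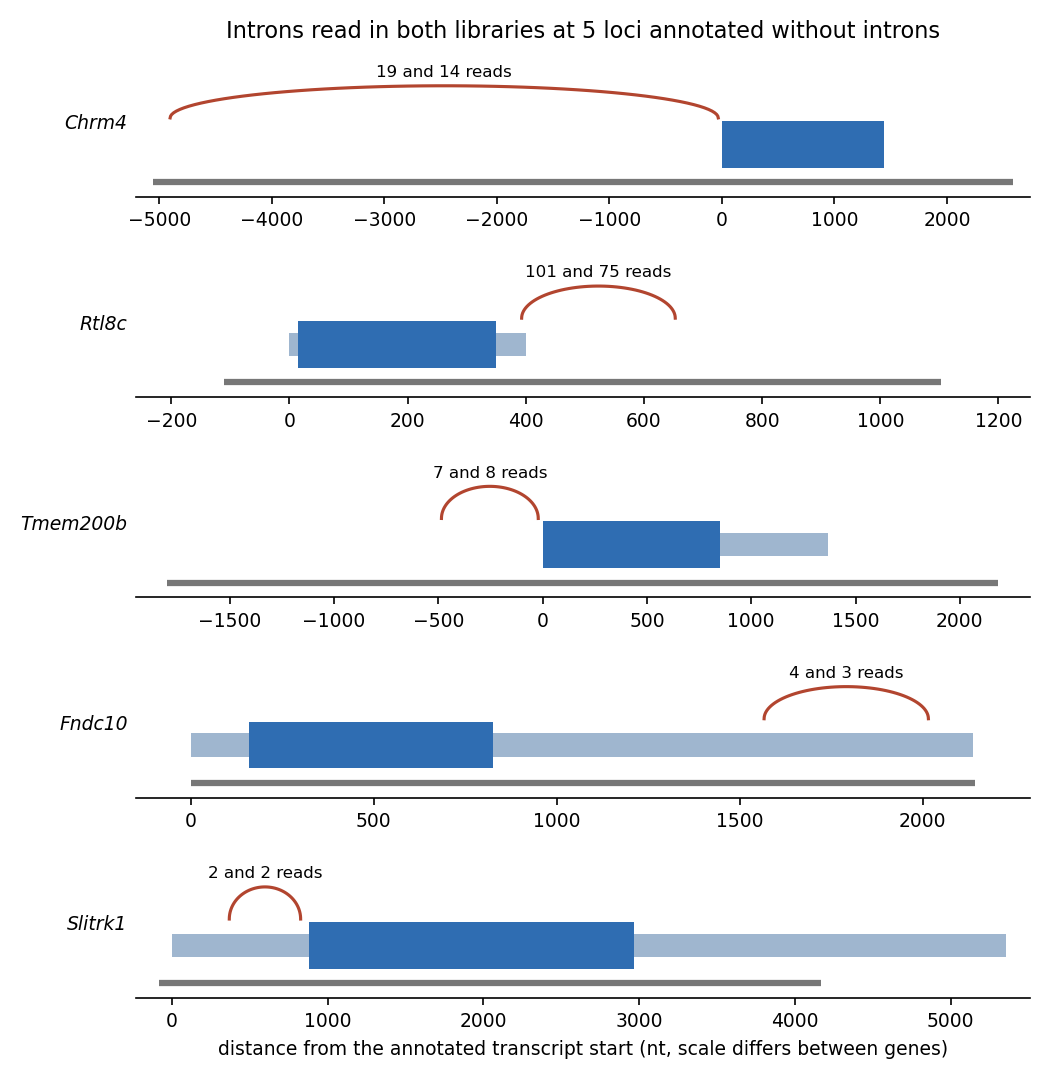
Introns read in both libraries (arcs, with reads in replicate 1 and replicate 2) at Chrm4, Rtl8c, Tmem200b, Fndc10 and Slitrk1, by distance from the annotated transcript start in nt. Pale boxes are the annotated exon, dark boxes its coding part and grey lines the RefSeq interval. All 5 introns lie outside the coding part, and those of Chrm4 and Tmem200b lie upstream of the annotated exon.

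Over all loci, 129 introns were read at 66 loci. Of these, 24 at 13 loci were read in both libraries, and 2 of the 24 overlapped the coding part. The remaining 105 were in 1 library only, 96 of them with 1 read, and 40 of the 105 overlapped the coding part. For the 46 introns wholly inside an annotated exon the end letters could be read: 39 were GT-AG, 5 were GC-AG and 2 had other ends. Of the 24 recurrent introns, 13 lay upstream of the annotated exon and 4 downstream of it. Of the 24, 12 belong to Gm21093 and to CR974586.2 on an unlocalized chromosome 4 sequence, 10 of them among the 13 upstream ones. These loci have introns of the same 650 and 14406 nt lengths, and Gm21093 has 9 near-identical copies, so the assignment of their reads is uncertain. The other 12 recurrent introns lay at 11 loci, with 3 upstream, those of Chrm4, Tmem200b and Ascl5.

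Some intronless genes are near-copies of a spliced gene, and reads cannot be assigned with certainty between such pairs. At 95% identity over 50% of the transcript, 50 of the 369 loci had a copy elsewhere, and for 33 the best match was a gene with more than 1 exon. These 33 held 4.40% and 4.57% of intronless reads, and 29 of them had fewer reads than the match. Gm11273 had 68 and 60 reads against 300 and 199 for Cox5b, a subunit of cytochrome oxidase. AK157302 had 50 and 54 against 295 and 244 for Isca1, an iron-sulfur cluster protein. Sap18b had 30 and 28 against 90 and 62 for Sap18, a part of a corepressor complex. Rpl10-ps3 went the other way. It had 64 and 48 reads against 14 and 5 for Rpl10, a ribosomal protein gene with which its aligned part is 100% identical. The genes in these pairs were named after their values were seen.

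Antisense models over the intronless loci held 501 reads in replicate 1 and 551 in replicate 2, or 5.16 and 6.72 per 100 sense reads. Over multi-exon coding loci the values were 5.49 and 10.3 per 100. The counting differs: a model over several intronless loci was counted at each, while each model over multi-exon loci was counted once. Reads of annotated genes on the opposite strand are in neither value. Antisense reads lay over 82 of the 369 loci, and 15 of these had more antisense than sense reads. The orientation of reads is not stated in the sources used here, so the strand of single-exon models is uncertain. The same limit holds for the single-exon reads counted as sense. Of the 369 loci, 101 share exonic bases with an annotated gene on the opposite strand, 41 of them among the 154 with at least 20 reads. Jund, Eid1, Pcbp1 and Bmyc are among these loci, and no alternative left them out. The 5 loci with the most held 39.7% and 44.3% of antisense reads. Klhl9 had 52 and 57 antisense reads beside 33 and 35 sense reads. Exoc8, of the exocyst complex that tethers vesicles, had 42 and 51 beside 10 and 12, on models that cover 818 of its 4598 nt at its 3′ end and otherwise lie outside it. Rap2b had 43 and 35 beside 28 and 15, and Sox11, a factor of immature neurons, had 24 and 44 beside 4 and 3. Purb had 38 and 57 beside 124 and 103, so it alone of these 5 had more sense than antisense reads. At these 5 loci all antisense reads were on single-exon models.

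The libraries were compared by a two-sided exact binomial test over all 9143 annotated genes with at least 20 reads, with Benjamini-Hochberg adjustment and a threshold of 0.05. The test compares these libraries as sequenced, not conditions. Of the 154 intronless loci tested, 2 differed, both higher in replicate 1, against 1.99% of all genes called in either direction 0.733% called higher in replicate 1 and 1.26% called lower. Without adjustment, 13 of the 154 (8.44%) and 1075 of the 9143 (11.8%) had p under 0.05. The median log2 ratio of replicate 1 over replicate 2 on CPM + 1 was 0.05 over the intronless loci and -0.03 over all genes tested. Of the 154 loci, 130 were within 1.5-fold between the libraries and 6 were more than 2-fold apart. Across the 195 loci with at least 10 reads the Pearson r of log2(CPM + 1) was 0.936. Loci are not replicates and share both libraries, so this is a description.

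Cldn5, the main tight junction protein of brain endothelium (chromosome 16, 18776847 to 18778262), had 205 reads in replicate 1 and 117 in replicate 2, with a log2 ratio of 0.62 (counting SE 0.17; adjusted p = 0.0151, exact binomial test). Sox2 (chromosome 3, 34650405 to 34652461) had 70 and 28, with a log2 ratio of 1.11 (adjusted p = 0.0241 by the same exact test, counting SE 0.32). All reads of both genes were on annotated transcripts. When unannotated models of other genes were left out, which lowers the totals and the number of genes tested, the log2 ratios were 0.55 and 1.05 and neither passed, at adjusted p = 0.0791 and 0.0745 by the same exact test, the ranges over all alternatives being 0.00875 to 0.0791 and 0.0174 to 0.0745. Flt1, the other endothelial marker examined, had only 10 and 14 reads, or 12.9 and 20.6 CPM. The 3 astrocyte markers summed to 2828 and 3057 CPM, of which Aldoc alone gave 2370 and 2509. In bulk tissue, fewer cells of a type and less RNA per cell cannot be told apart. The part of cell composition in the differences of Cldn5 and Sox2 was not tested.

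Jund had a log2 ratio of -0.24 (counting SE 0.08; adjusted p = 0.0868, exact binomial test) and did not pass. With reads of annotated transcripts only it was the 1 intronless locus called, lower in replicate 1 (log2 ratio -0.30, adjusted p = 0.0177 in the exact test), against 0.845% of genes called. Other wide ratios rested on few reads and did not pass. Fzd2 had 13 and 29 reads (log2 ratio -1.30), Fzd1 7 and 18 (-1.45), and Cited4, a coactivator-binding gene of the early response list, 37 and 15 (1.08).

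**Figure D5:**
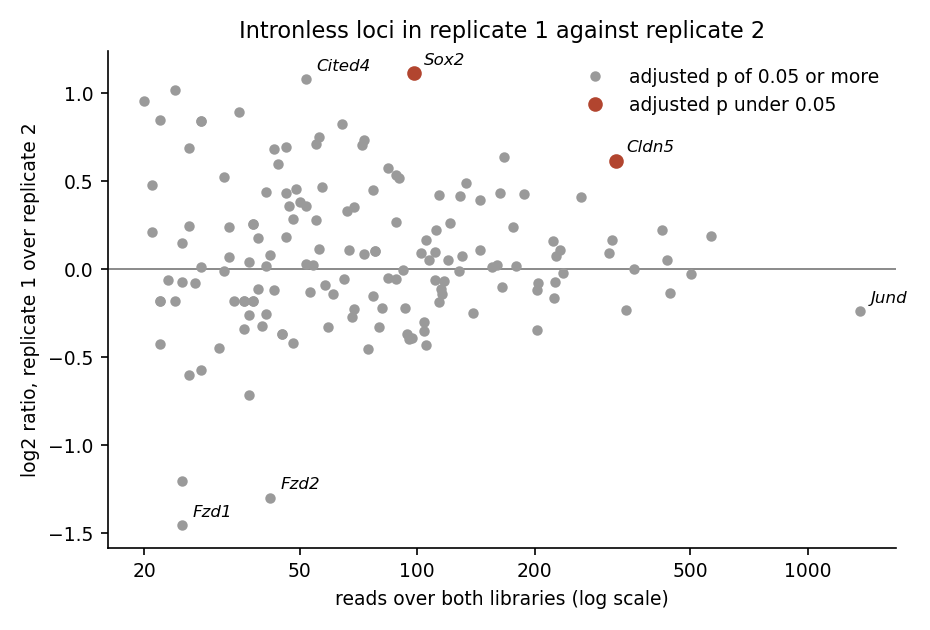
Log2 ratio of replicate 1 over replicate 2 on CPM + 1 for the 154 intronless loci with at least 20 reads, against their reads over both libraries on a log axis. The 2 loci with adjusted p under 0.05, Cldn5 and Sox2, both lie above 0, and the widest ratios without a call lie at low read numbers.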

How the data were processed

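Long-read counts per transcript model were used as the authors deposited them, as whole-number counts of 1 library per table, with the exon number and coordinates of each model from the deposited annotations (mm10, GENCODE M21; TALON is named per the file headers). No source used here gives the aligner or the tool versions. The tables sum to 871524 reads (replicate 1) and 839150 reads (replicate 2), and spike-in RNAs, 1.56% and 1.32% of them, were left out. A model absent from a table was taken as 0 reads. A locus count is the sum over all models given to the gene, antisense models excluded, and gene extents come from annotated transcripts.

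CPM and the log2 ratio (pseudocount 1 CPM) were computed here. Genes with at least 20 reads were compared by the exact binomial test in scipy 1.17.1 with Python 3.11.15. The planned design has no replicates within a side, so no dispersion was fitted. edgeR 4.0.16 (TMM) and DESeq2 1.42.0 (size factors) gave alternative scalings in R 4.3.3. Copies were sought with BLAST+ 2.17.0. On simulated data with counting error only, 200 genes were changed in each run. At 1.5-fold 9.5% of them were called among 9133 genes, at 2-fold 44.0% among 9102 and at 4-fold 87.0% among 9098, with 1, 5 and 6 unchanged genes called.

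The members and gene lists were chosen with earlier results of these data known. The rule for naming genes took the 20 loci with the most reads, up to 6 per list by reads, all loci called between the libraries, the 5 with the highest spliced share and the 5 with the lowest annotated share at 20 or more reads, and the 5 with the most antisense reads. Not every gene taken is printed. Other genes, among them the remaining members of the 4 families, X-linked genes, loci with recurrent introns loci with wide ratios and members of a kind that a list leaves out, were named after their values were seen. Alternatives covered read minimums, scaling, the class of model, genes overlapping on the same strand, equal weight of loci and leaving out a library.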

Additional observations from a re-analysis of the deposited data

How the results depend on the processing

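No paired analysis was possible because there is only 1 group. The number of intronless loci with reads was 321 to 325 when 1 library was left out and 195 at 10 or more reads. Their share of reads on annotated genes was 1.21% to 1.25% by library, 1.19% without loci overlapping another gene on the same strand, 1.73% on annotated transcripts only and 1.06% of all mouse reads. The number of loci that differed between the libraries was 2 under TMM or DESeq2 scaling, at other read minimums and without overlapping loci. It was 1 with annotated transcripts only and 0 at an adjusted p under 0.01 (exact binomial test; 13 had an unadjusted p under 0.05). Over all genes the calls were 67 higher and 115 lower in replicate 1, 89 and 97 with TMM or DESeq2 scaling, 55 in all with annotated transcripts only and 97 in all under 0.01. The annotated share was 97.7% to 97.8% by library and 97.7% with equal weight per locus. The spliced share was 1.99% to 2.01% by library, 2.05% without overlapping loci, 2.20% with equal weight and 1.02% without Rtl8c. Antisense reads per 100 were 5.16 to 6.72 by library and 4.58 when models had to lie at least 50% within the locus and each was counted once. No alternative reversed a direction for Cldn5, Sox2 or Jund. Depth limits the loci under 20 reads, 215 of 369.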
